A study of Mus musculus with 6 samples.

Results

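Collagens and the stromal matrix proteins that assemble with them were followed by RNA-seq in cultures of mouse osteoclasts, the cells that resorb bone, grown from bone marrow. All genes with a collagen alpha-chain symbol were taken, 44 in number, together with 9 other matrix genes, namely Sparc, Postn, Fn1, Fbn1, Dcn, Lum, Bgn, Lox and Serpinh1. These 53 of 23204 genes in the deposited table were chosen by name, not by measured values, though with earlier results of these data known. Of them, 41 had at least 1 CPM (counts scaled to a common library total) in at least 3 of the 6 libraries and were tested with 13646 genes in all, and 12 were below that limit. The libraries came from 3 wild-type samples and 3 samples whose label is Tet2Rank–/–; Tet3aRank+/–, taken to mean that Tet2 is deleted on both alleles and Tet3 on 1, and called mutant below. All were of the C57BL/6 strain, and each genotype held 1 female and 2 male samples. Marrow cells that attached within 2 days in M-CSF, the growth factor that keeps macrophage precursors alive, were given RANKL, the cytokine that turns them into osteoclasts, with M-CSF, in both genotypes alike. What Rank denotes in the allele names, the cells in which the alleles were deleted and the ages of the animals are not in the labels. No label says that the 3 samples of a genotype came from separate animals, so every p-value rests on the spread between libraries, which may be technical.

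Collagens are secreted as procollagen chains that fold as triple helices in the endoplasmic reticulum, where chaperones and hydroxylases act on them, and are trimmed and crosslinked outside the cell. Fibroblasts, osteoblasts, smooth muscle cells and pericytes make most fibrillar matrix, whereas osteoclasts are of the blood lineage and are known for degrading the collagen of bone. A marrow culture grown towards osteoclasts can hold attached stromal cells, and it is known that some macrophages and osteoclasts express single matrix genes such as fibronectin.

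Col27a1 and Postn were the 2 matrix genes that passed a genotype test, in opposite directions, when the libraries were modelled by genotype and by the form of their column names. The 250 bases before their start sites are shown so that this pair can be compared. RefSeq entries of build GRCm38.p6 were matched by symbol for 40 of the 53 genes and 29 of the 41 tested. Each is printed 5′ to 3′ on the strand of the gene, in lower case, with matches to the motifs named below in capitals. The Col27a1 window is chr4:63215162-63215411 on the plus strand and the Postn window is chr3:54360857-54361106 on the plus strand.
Col27a1: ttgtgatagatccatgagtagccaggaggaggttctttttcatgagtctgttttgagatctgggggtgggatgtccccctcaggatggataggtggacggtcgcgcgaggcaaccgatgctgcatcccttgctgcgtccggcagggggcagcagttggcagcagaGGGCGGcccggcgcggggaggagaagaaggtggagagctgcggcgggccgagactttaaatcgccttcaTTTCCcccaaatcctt
Postn: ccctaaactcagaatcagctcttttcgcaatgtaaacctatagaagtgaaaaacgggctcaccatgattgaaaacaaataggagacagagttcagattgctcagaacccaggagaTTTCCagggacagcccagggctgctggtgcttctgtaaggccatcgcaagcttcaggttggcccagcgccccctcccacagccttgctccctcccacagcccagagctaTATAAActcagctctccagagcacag
The Col27a1 window held 1 GC box (GGGCGG) and 1 core of the NFAT motif (TTTCC, the reverse complement of GGAAA), and Postn held 1 TATA box (TATAAA) close to its start and 1 NFAT core. NFATc1, which binds such cores, is the transcription factor that drives osteoclast differentiation. On either strand, GGAAA was in 12 of the 29 windows of tested matrix genes and in 55.6% of 32851 promoter windows of the same length, GGGCGG in 20 of 29 and 32.7%, TATAAA in 4 of 29 and 12.4%, and CCAAT in 10 of 29 and 33.8%. The RefSeq start of Col27a1 lies 1408 bases inside the gene's start in the deposited table. These matches are letters in a window and not measured binding.

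Depth was 8794973 to 14267135 counts per library. The library columns open with a number, and by these numbers wild type was libraries 1, 4 and 6 and mutant libraries 2, 3 and 5. Values are given in that order throughout, in CPM scaled by the TMM method. The columns of libraries 5 and 6 carry a second number, those of libraries 1 to 4 do not, and this naming split holds both genotypes on each side. What the second number stands for is not given in the sources used here. Tet2 was at 71.7, 80.98 and 79.2 CPM in wild type and 58.4, 45.6 and 52.2 CPM in mutant libraries, a fitted difference of -0.57 ± 0.12 on the log2 scale (SE, n = 3 per genotype, adjusted p = 0.0900 by edgeR). Its genotypes did not overlap, and the two-sided exact permutation p of 0.1 is the smallest that 3 against 3 libraries can give. Tet3 was at 145, 122 and 126 CPM in wild type and 164, 141 and 155 CPM in mutant libraries, with no lower level in the latter (log2 fold change 0.23, edgeR adjusted p = 0.351), so the label of 1 deleted Tet3 copy could not be seen in the counts of the whole gene. All 10 osteoclast markers listed, Ctsk and Acp5 among them, were detected in every library, and their summed level was 15155 to 39664 CPM in wild type and 2975 to 12362 CPM in mutant libraries. Genes of the anterior pituitary, which no sample label mentions, summed to 2630 to 16681 CPM in libraries 1 to 4 and to 0.3204 and 0.521 CPM in libraries 6 and 5, where Prl, Cga, Tshb, Lhb and Fshb had 0 counts. Libraries 5 and 6 thus stand apart. The main test was by genotype alone, and each test was also made with the naming split as a term. Tests on libraries 1 to 4 alone were added after seeing the data.

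The genotype comparison found no matrix gene that differed at an edgeR adjusted p under 0.05. The count was 0 of 41, where 0.0733% of all genes tested were called, 0.0513% higher and 0.022% lower, and the unadjusted p was under 0.05 for 2 of 41 against 20% of all genes. By direction this was 0 higher, against 7.39% of all genes, and 2 lower, against 12.6%. These were Col27a1, with an unadjusted edgeR p of 0.00385, and Col15a1, with 0.04002, the latter named because of its p. DESeq2 called 1 of 41, Col27a1, against 10.3% of all genes (4.82% higher and 5.48% lower), and libraries 1 to 4 alone gave 0 of 41 calls against 0.00733%, with 2 of 41 at an unadjusted p under 0.05, against 13.6% of all genes. With the naming split in the edgeR model, 2 of 41 were called, against 9.53% of all genes. Of these, 1 was called higher, Postn, against 3.39% of all genes, and 1 of 41 lower, Col27a1, against 6.15%. Either single call among 41 genes was no larger a share than that of all genes. By sign, 28 of 41 log2 fold changes were above 0 and 13 below, with a median of 0.32, whereas over all genes the median was -0.026 and 53.2% were below 0. The sign of 22 of the 41, and of 35% of all genes, changed in at least 1 of the fits that left out a library. In whole-culture RNA, more cells of a type and more RNA per cell cannot be told apart.

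**Figure D1:**
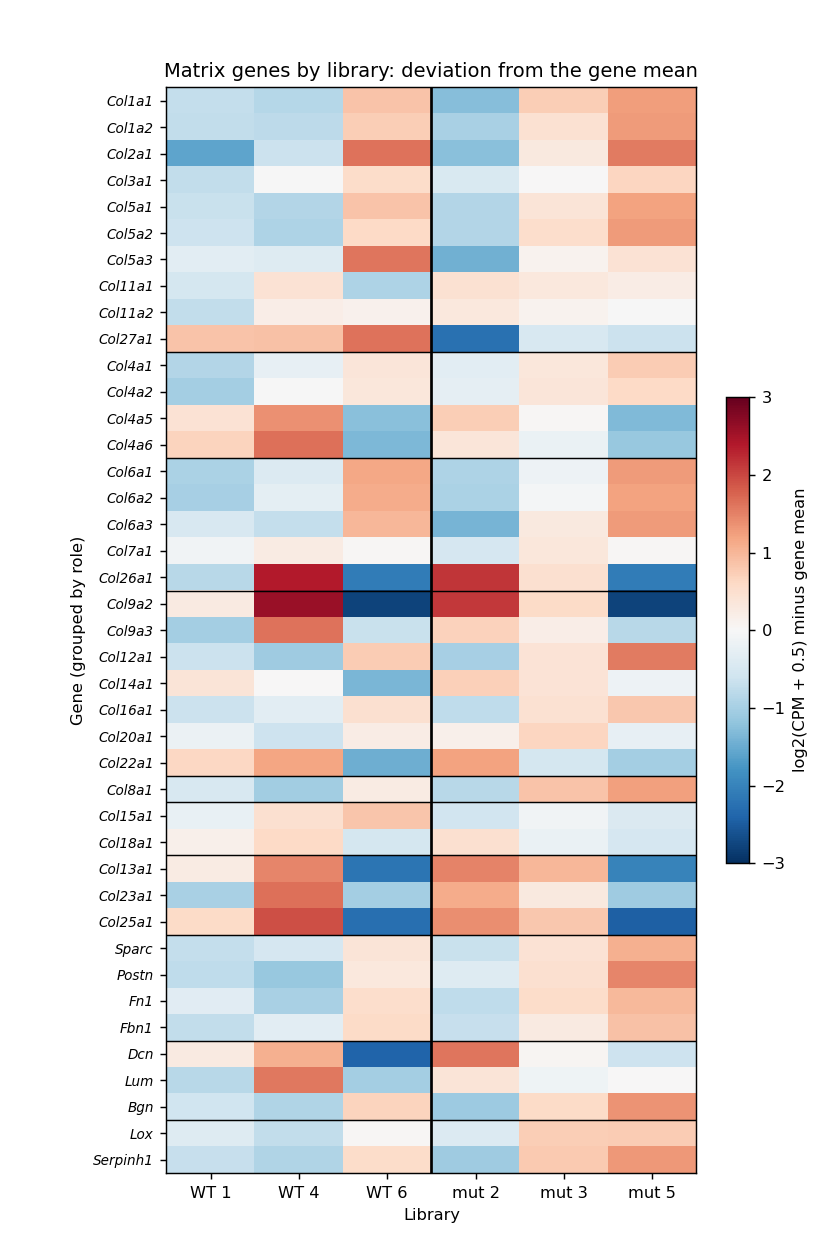
Deviation of log2(CPM + 0.5) from the mean of each gene (colour) for the 41 tested matrix genes (rows, grouped by role) in the 6 libraries (columns, wild type left of the thick line). Most fibril-forming collagens and glycoproteins are above their mean in libraries 6, 3 and 5 and below it in 1, 4 and 2, while the transmembrane collagens are below it in 6 and 5.

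Fibril-forming collagens, whose long triple helices pack into the striated fibrils of connective tissue and bone, had the largest summed level of the role groups in every library. Summed over all 11 genes of the group, 10 of them tested, their level was 1267, 1291 and 3388 CPM in wild type and 936, 2668 and 4174 CPM in mutant libraries. Libraries 1, 4 and 2 were low and libraries 6, 3 and 5 high, so the levels split within each genotype. Of the 10 tested, 8 had a log2 fold change above 0 and 2 below, with a median of 0.36, and 1, Col27a1, was called lower with the naming split in the model.

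Col1a1 and Col1a2 encode the chains of type I collagen, the main protein of bone matrix. Col1a1 (chr11:94936224-94953042) was at 414, 378 and 1235 CPM in wild type and 278, 1139 and 1608 CPM in mutant libraries. Library 6 of wild type was far above library 2 of the mutant, and the genotypes overlapped. The means were 676 ± 485 in wild type and 1009 ± 675 in mutant libraries (SD, n = 3 each), and the log2 fold change of 0.58 ± 0.72 (SE) had an edgeR adjusted p of 0.751. Leaving out 1 library at a time moved it between 0.09 and 1.37. Col1a2 (chr6:4504814-4541544) was at 358, 345 and 993 CPM (wild type) and 305, 816 and 1444 CPM (mutant), in the same order of libraries within each genotype as Col1a1. Its means were 565 ± 370.4 in wild type and 855 ± 570.5 in mutant libraries and its log2 fold change was 0.60 ± 0.65 (SE, adjusted p = 0.707 by edgeR). Per kilobase of exon, the Col1a1 level was 1.73 to 2.64 times that of Col1a2 over the 6 libraries, with a mean of 2.21 ± 0.14 in wild type and 2.16 ± 0.46 in mutant libraries (SD, n = 3), so the ratio moved far less than either level.

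Col3a1, the type III chain of reticular and vascular fibrils, was at 125, 209 and 308 CPM in wild type and 155, 213 and 331 CPM in mutant libraries (chr1:45311538-45349706). Its means were nearly equal at 214 ± 91.4 in wild type and 233 ± 89.9 in mutant libraries (SD, n = 3), with a log2 fold change of 0.12 ± 0.40 (SE, adjusted p = 0.938 by edgeR) whose sign turned when library 1 or library 5 was left out. Its level per kilobase relative to Col1a1 ran from 0.125 in library 3 to 0.372 in library 2, so type III did not keep step with type I. The type V chains regulate the width of type I fibrils. Col5a1 was at 67.5, 58.4 and 195 CPM (wild type) and 58.6, 143 and 249.4 CPM (mutant), and Col5a2 at 103, 83.4 and 240.1 CPM (wild type) and 86.5, 228 and 384 CPM (mutant). Col5a3 had 16.9, 16.04 and 64.7 CPM (wild type) and 7.44, 22.7 and 28.5 CPM (mutant), with its highest level in wild-type library 6 and its lowest in mutant library 2. The first 2 followed type I, and Col5a1 per kilobase stayed at 0.706 to 0.916 times Col5a2.

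The cartilage fibril genes were low. Col2a1, the type II chain, was at 5.83, 11.6 and 57.5 CPM (wild type) and 7.37, 22.6 and 55.03 CPM (mutant), high in libraries 6 and 5 of either genotype. Col11a1 was at 6.18, 12.5 and 4.57 CPM (wild type) and 12.6, 11.3 and 10.7 CPM (mutant), and Col11a2 at 2.45, 5.11 and 4.81 CPM (wild type) and 5.55, 4.79 and 4.31 CPM (mutant). These type XI chains, partners of type II in cartilage, did not share the pattern of Col2a1. Of 5 chondrocyte markers 1 was tested, and Acan, the cartilage proteoglycan, had 1 to 13 counts in a library.

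Col27a1 had a log2 fold change below 0, while those of Col1a1, Col1a2, Col3a1, Col5a1 and Col5a2 were above 0 and not called. It encodes the chain of type XXVII collagen, a fibril-forming collagen known from cartilage, and lies at chr4:63214004-63334991 on the plus strand (ENSMUSG00000045672). Its level was 167, 171 and 285 CPM in wild type, from 1433, 2207 and 3561 counts, and 19.2, 65.7 and 58.6 CPM in mutant libraries, from 274, 645 and 788 counts. Every mutant library was below every wild-type library, and Col27a1 was the only 1 of 41 matrix genes whose genotypes did not overlap with the mutant lower, where 17.1% of all genes did so. None of the 41 did so with the mutant higher, against 10.1% of all genes. The mean CPM was 208 ± 67.1 in wild type and 47.9 ± 25.04 in mutant libraries (SD, n = 3), with a log2 fold change of -2.12 ± 0.48 (SE, adjusted p = 0.0969 by edgeR). With the naming split in the model it was -2.10 ± 0.40 (SE, adjusted p = 0.0296 by edgeR), and DESeq2 gave -2.09 (adjusted p = 0.000210). In libraries 1 to 4 alone the log2 fold change was -1.99 (edgeR adjusted p = 0.247), and the difference was of like size on both sides of the naming split, -2.27 between libraries 5 and 6 and -2.23 between the means of libraries 2 and 3 and of libraries 1 and 4. Leaving out 1 library at a time kept it between -2.42 and -1.73, with edgeR adjusted p from 0.154 to 0.232. With the naming split as a term, the adjusted p was 0.0346 without library 2 and 0.00607 without library 3, and it was 0.0567, 0.0775, 0.233 and 0.242 without libraries 1, 4, 5 and 6. Beside it, the summed osteoclast markers were likewise lower in all 3 mutant libraries, with library 2 lowest and library 6 highest for both. Whether the osteoclast content of the cultures has a part in the Col27a1 difference was not tested.

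**Figure D2:**
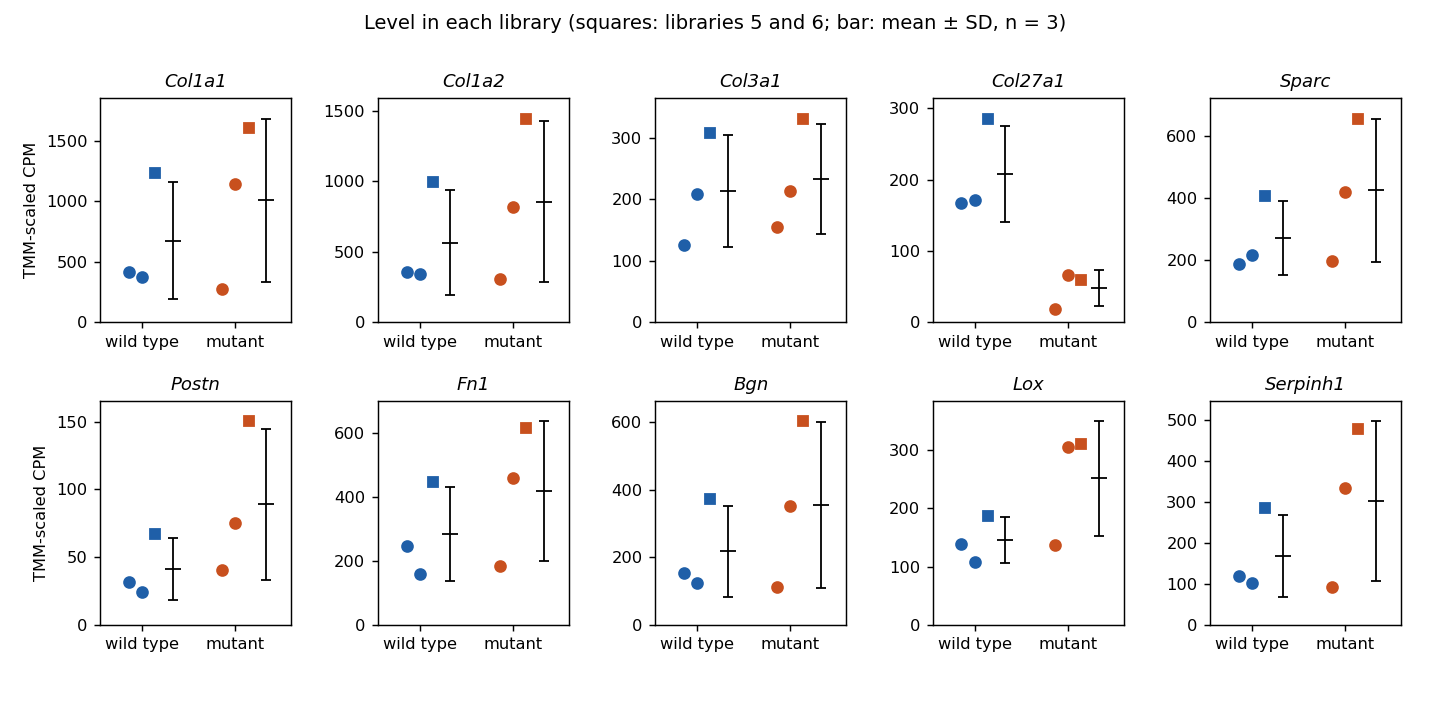
TMM-scaled CPM of 10 matrix genes in each library (points; squares are libraries 5 and 6), with the mean ± SD of each genotype (n = 3) beside them. Only Col27a1 has genotypes that do not overlap, at 167 to 285 CPM against 19.2 to 65.7 CPM, and in the other 9 panels wild-type library 6 is above mutant library 2.

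The matrix glycoproteins bind collagen and cells. All 4 had a log2 fold change above 0, with a median of 0.60, and 1, Postn, was called higher with the naming split in the model. Each was highest in library 6 within wild type and in library 5 within the mutant. Postn encodes periostin, made by periosteal and other mesenchymal cells, and lies at chr3:54361109-54391037 (ENSMUSG00000027750). It was at 31.7, 24.3 and 66.9 CPM in wild type, from 272, 314 and 835 counts, and at 40.7, 75.3 and 150.3 CPM in mutant libraries, from 580, 739 and 2021 counts. Wild-type library 6 lay above mutant library 2, so the genotypes overlapped, but within each side of the naming split the mutant libraries were higher. The mean CPM was 40.98 ± 22.7 in wild type and 88.8 ± 56.01 in mutant libraries (SD, n = 3) and the log2 fold change was 1.11 ± 0.56 (SE, adjusted p = 0.343 by edgeR). With the naming split as a term it was 1.09 ± 0.24 (SE, adjusted p = 0.0384 by edgeR), DESeq2 without that term gave an adjusted p of 0.174, and libraries 1 to 4 alone gave 1.06 (edgeR adjusted p = 0.280). The difference was 1.16 between libraries 5 and 6 and 0.98 between the means of libraries 2 and 3 and of libraries 1 and 4 on the log2 scale. With the term, leaving out library 2 or 3 gave an adjusted p of 0.0332 or 0.0379, and leaving out libraries 1, 4, 5 or 6 gave 0.0594, 0.0997, 0.264 or 0.269. Without the term, leaving out 1 library at a time moved the log2 fold change between 0.51 and 1.69. The Postn call thus held only with the term and with the libraries named.

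Sparc encodes osteonectin, a collagen-binding protein abundant in bone. It was at 189, 218 and 406 CPM in wild type and 197, 421 and 656 CPM in mutant libraries, with means of 271 ± 118 in wild type and 425 ± 229 in mutant libraries and a log2 difference of 0.65 ± 0.48 (SE, adjusted p = 0.541 by edgeR). Fn1, fibronectin, was at 247, 158 and 447 CPM (wild type) and 184, 458 and 615 CPM (mutant), with means of 284 ± 148 in wild type and 419 ± 218 in mutant libraries and a log2 difference of 0.56 ± 0.53 (SE, adjusted p = 0.650 by edgeR). For both, library 2 of the mutant was level with the low wild-type libraries. Fbn1, fibrillin of elastic microfibrils, was at 36.3, 48.6 and 90.7 CPM (wild type) and 37.6, 73.4 and 112 CPM (mutant), highest again in libraries 6 and 5. Its level is uncertain because 20.1% of its exon length overlaps Gm9913 on the other strand, and the strand setting of the counting is not given in the sources used here.

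Lox and Serpinh1 had the highest median log2 fold change of the groups with more than 1 tested gene, at 0.82, and neither passed the test. Lox, lysyl oxidase, starts the crosslinking of collagen and elastin. It was at 139.7, 109 and 187 CPM in wild type and 138, 306 and 312 CPM in mutant libraries, with means of 145 ± 39.6 in wild type and 252 ± 98.5 in mutant libraries (SD, n = 3) and a log2 difference of 0.79 ± 0.35 (SE, adjusted p = 0.282 by edgeR). Libraries 3 and 5 were above all wild-type libraries, and library 2 was below libraries 1 and 6. Serpinh1, the collagen chaperone HSP47, was at 119, 102 and 284 CPM (wild type) and 91.7, 334 and 478 CPM (mutant), with means of 168 ± 100.1 in wild type and 301 ± 195 in mutant libraries and a log2 difference of 0.84 ± 0.65 (SE, adjusted p = 0.560 by edgeR). Compared per kilobase of exon, as the mean of the 6 libraries, Serpinh1 at 96.1 was second only to Col1a1 at 128, and Sparc followed at 91.8, Col1a2 at 57.1 and Bgn at 46.9 CPM per kilobase. Col27a1 and Postn ranked lower, at 9.82 and 7.46 CPM per kilobase.

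Type IV collagens form the network of basement membranes. Col4a1 and Col4a2, whose gene models overlap by 22 bases head to head on chromosome 8, were the abundant pair. Col4a1 was at 64.8, 101 and 156 CPM (wild type) and 96.1, 153 and 203 CPM (mutant), and Col4a2 at 36.4, 73.6 and 92.9 CPM (wild type) and 61.6, 94.6 and 111 CPM (mutant). Library 1 was lowest for both, and Col4a1 per kilobase was 1.22 to 1.62 times Col4a2 over the 6 libraries. Col4a5 and Col4a6, a head-to-head pair 1308 bases apart on chromosome X, did the opposite. Col4a5 was at 12.9, 25.1 and 3.68 CPM (wild type) and 16.01, 9.78 and 3.495 CPM (mutant), lowest in libraries 6 and 5. Col4a6 was at 1.52 and 3.49 CPM in libraries 1 and 4 with 0 counts in library 6, which allows up to 0.240 CPM (3 counts of that library, counting error only), and at 1.12, 0.611 and 0.0744 CPM in mutant libraries.

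Type VI collagen forms beaded filaments around cells, including pericytes and muscle. Its 3 tested genes were highest in libraries 6 and 5 in their genotypes. Col6a1 was at 73.6, 108 and 322 CPM (wild type) and 75.5, 129 and 345 CPM (mutant), Col6a2 at 53.6, 87.3 and 232 CPM (wild type) and 55.3, 104 and 248 CPM (mutant), and Col6a3 at 100.1, 84.9 and 279 CPM (wild type) and 52.5, 171 and 338 CPM (mutant). In the model with both terms, Col6a1 was higher in libraries 5 and 6 than in libraries 1 to 4 by a log2 fold change of 1.79 ± 0.23 (SE, adjusted p = 0.0375 by edgeR) and Col6a2 by 1.68 ± 0.27 (SE, adjusted p = 0.0438 by edgeR). Col6a1 per kilobase was 2.34 to 2.64 times Col6a2, the steadiest of the 6 chain ratios computed, whereas Col6a3 relative to Col6a1 ran from 0.254 to 0.498. Col7a1, of the anchoring fibrils of skin, was at 2.57, 3.41 and 2.88 CPM (wild type) and 1.83, 3.67 and 2.900 CPM (mutant). The SD of its log2(CPM + 0.5) was 0.18 in wild type and 0.43 in mutant libraries.

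Among fibril-associated collagens, which coat the surface of fibrils, Col12a1 was the abundant gene at 74.99, 55.4 and 197 CPM (wild type) and 57.9, 155 and 342 CPM (mutant) and followed type I. Col16a1 was at 11.1, 14.03 and 24.8 CPM (wild type) and 10.3, 24.3 and 31.2 CPM (mutant), with libraries 6, 3 and 5 again highest. Col14a1 was at 6.41, 4.805 and 1.52 CPM (wild type) and 8.15, 6.52 and 4.24 CPM (mutant), lowest in libraries 6 and 5, and Col20a1 was at 2.92, 2.01 and 4.005 CPM (wild type) and 3.79, 5.503 and 2.75 CPM (mutant). So genes of this one group followed opposite library patterns. Col8a1, a short-chain collagen of vascular and corneal matrix, was at 26.7, 17.7 and 44.5 CPM (wild type) and 20.9, 67.4 and 88.7 CPM (mutant) and joined the pattern of type I. Bgn, biglycan, a small leucine-rich proteoglycan of bone and vessel wall, did so as well at 154, 125 and 373 CPM (wild type) and 110.5, 352 and 603 CPM (mutant). Its means were 217 ± 136 in wild type and 355 ± 246 in mutant libraries (SD, n = 3) and its log2 fold change was 0.71 ± 0.67 (SE, adjusted p = 0.650 by edgeR).

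Decorin and lumican, the other small proteoglycans, had a different order of libraries from biglycan. Dcn was at 16.4, 28.8 and 2.16 CPM in wild type and 42.1, 14.1 and 8.63 CPM in mutant libraries, lowest in libraries 6 and 5. Lum, which lies 46984 bases from Dcn on chromosome 10 in the same orientation, was at 0.816, 6.51 and 0.641 CPM (wild type) and 2.53, 1.63 and 1.86 CPM (mutant), highest in library 4. The endostatin-type collagens Col15a1 and Col18a1, heparan or chondroitin sulphate-bearing collagens of basement membrane zones, both had log2 fold changes below 0. Col15a1 was at 8.397, 13.9 and 17.9 CPM (wild type) and 6.46, 9.17 and 7.14 CPM (mutant) (edgeR adjusted p = 0.222), and Col18a1 at 54.8, 75.6 and 34.1 CPM (wild type) and 68.8, 42.7 and 34.95 CPM (mutant). For Col15a1 the lowest wild-type library, 1, was below mutant library 3 alone.

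The transmembrane collagens, which stay anchored in the plasma membrane, showed a sharp split by library. Summed over all 4 genes of the group, 3 of them tested, their level was 8.16, 26.3 and 0.641 CPM in wild type and 18.96, 12.6 and 0.595 CPM in mutant libraries. Col25a1, a collagen known from neurons, was at 5.36, 14.5 and 0.3204 CPM (wild type) and 9.76, 6.32 and 0.223 CPM (mutant), with 4 counts in library 6 and 3 in library 5 against 46 to 187 in the rest. Col13a1 was at 2.22 and 5.81 CPM in libraries 1 and 4 with 0 counts in library 6, which allows up to 0.240 CPM, and at 5.900, 4.08 and 0.0744 CPM in mutant libraries. Both were lower in libraries 5 and 6 than in libraries 1 to 4 (edgeR adjusted p = 0.0375 for Col25a1 and 0.0431 for Col13a1), as was Col4a5 (log2 fold change -2.12 ± 0.39, SE, adjusted p = 0.0491 by edgeR). Col23a1 was at 0.3499, 4.73 and 0.3204 CPM (wild type) and 3.09, 1.53 and 0.297 CPM (mutant) and did not pass that test. Other low-level collagens were, like these, highest in libraries 4 and 2. Col9a2 was at 3.62 and 19.99 CPM in libraries 1 and 4 and 14.5 and 4.59 CPM in libraries 2 and 3, with 0 counts in libraries 6 and 5, which allows up to 0.240 and 0.223 CPM. Col26a1, a collagen of reproductive tissues, was at 0.6998 and 10.6 CPM in libraries 1 and 4 and 8.92 and 2.45 CPM in libraries 2 and 3, again with 0 counts in libraries 6 and 5. Col9a3 was at 0.467, 5.58 and 0.721 CPM (wild type) and 2.67, 1.73 and 0.595 CPM (mutant), with 6.07% of its exon length overlapping Tcfl5 on the other strand, and Col22a1 at 1.98, 3.18 and 0.0801 CPM (wild type) and 3.23, 0.611 and 0.297 CPM (mutant). Libraries 4 and 2, the highest for each of these genes, also had the highest sums of pituitary hormone genes and of endothelial markers. The sums of the 7 endothelial markers, all tested, were 32.0, 78.2 and 25.6 CPM in wild type and 91.9, 43.5 and 41.1 CPM in mutant libraries, with Cldn5 at 0 counts in libraries 5 and 6 and Tek at 0 in library 6. Vwf went the other way at 11.5, 9.53 and 14.3 CPM (wild type) and 16.9, 9.68 and 26.9 CPM (mutant), highest in library 5, where it made up most of the sum. Whether RNA of pituitary or endothelial cells has a part in these levels was not tested.

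**Figure D3:**
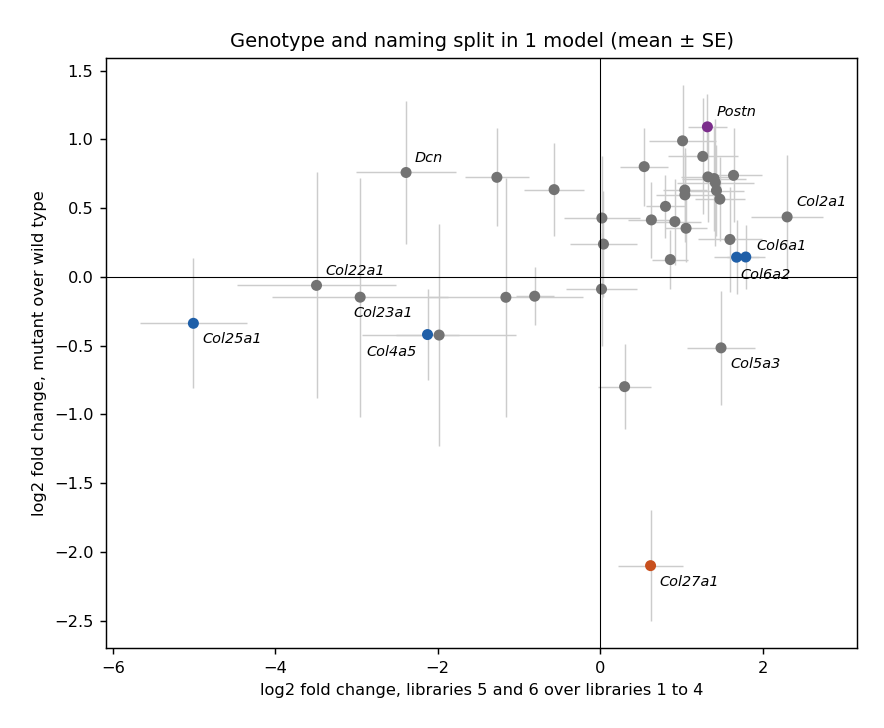
Log2 fold change ± SE of mutant over wild type (vertical) against that of libraries 5 and 6 over libraries 1 to 4 (horizontal), from 1 edgeR model with both terms, for 37 tested matrix genes; 4 genes with 1 count or fewer in libraries 5 and 6 together are left out. Orange marks a genotype call (Col27a1), blue a call for the naming split and purple both (Postn), and most genes lie right of 0 and within 1 of 0 on the genotype axis.

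Over all 41 matrix genes, the naming split gave 6 calls, where 2.55% of all genes were called. Among them were 3 calls higher in libraries 5 and 6, Col6a1, Col6a2 and Postn (log2 fold change 1.32 ± 0.24, SE, adjusted p = 0.0487 by edgeR), where 0.513% of all genes were called so. It gave 3 calls lower, Col4a5, Col13a1 and Col25a1, against 2.04% of all genes. Of the 41, 27 were above 0 on this axis and 14 below. Library 6 was the highest wild-type library and library 5 the highest mutant library for 22 of 41 genes, against 23.5% of all genes, and both were the lowest for 12 of 41, against 23.1%. Library 5 was above library 6 for 29 of 41 genes and the mean of libraries 2 and 3 was above that of libraries 1 and 4 for 30 of 41, with median log2 differences of 0.27 and 0.36. For all 13646 genes tested these counts were 6744 and 6435, and the medians were 0 and -0.024.

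Spread within genotype was wide. The median SD of log2(CPM + 0.5) was 0.865 in wild type and 0.999 in mutant libraries for the 41 matrix genes, and 0.246 and 0.222 for all genes tested. The matrix genes remained more spread among genes with a mean of at least 10 CPM, where 27 matrix genes had medians of 0.790 and 1.04 and all 9362 genes 0.192 and 0.172. Removing library 6 took the wild-type median to 0.401, and removing library 2 took the mutant median to 0.452, so these libraries carried much of it. All 53 matrix genes together took 0.268%, 0.298% and 0.648% of the counts in wild type and 0.237%, 0.588% and 0.862% in mutant libraries. Library 5 had the highest level of 20 of the 41 genes, Col1a1, Sparc and Postn among them, and libraries 1 and 2 had the lowest level of 10 each. With this spread, the SE of a genotype log2 fold change was 0.72 for Col1a1 and 0.65 for Col1a2, so differences of the size fitted for them were not detectable with these libraries.

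**Figure D4:**
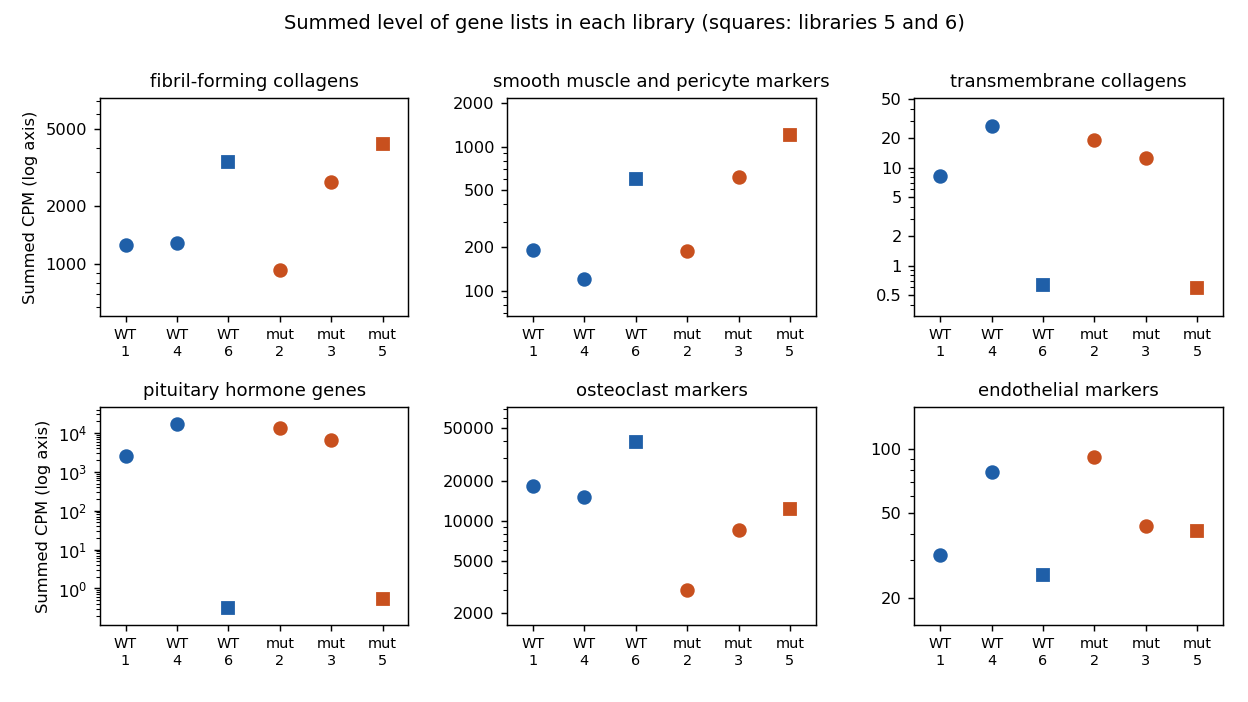
Summed TMM-scaled CPM of 6 gene lists in each library (log axes; blue is wild type, orange mutant, squares are libraries 5 and 6). Fibril-forming collagens and smooth muscle and pericyte markers are both high in libraries 6, 3 and 5, and transmembrane collagens and pituitary hormone genes are both low in libraries 6 and 5. The summed osteoclast markers of the genotypes do not overlap, though Dcstamp, Calcr and Itgb3 of that list, taken singly, do.

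Summed markers of several cell types had a library order like that of the fibrillar genes. The 5 smooth muscle and pericyte markers, all tested, summed to 191, 120 and 599 CPM in wild type and 190.5, 619 and 1208 CPM in mutant libraries, the same 3 libraries being high as for the fibril-forming collagens. Acta2, smooth muscle actin, made up most of this sum at 131, 82.4 and 414 CPM (wild type) and 121, 416 and 813 CPM (mutant). Rgs5, the pericyte marker of the list, went the other way at 1.17, 6.04 and 0.2403 CPM (wild type) and 7.73, 2.85 and 0.446 CPM (mutant), lowest in libraries 6 and 5. The 9 fibroblast and marrow stroma markers, 8 of them tested, summed to 101, 137 and 191 CPM and to 119, 210.2 and 337 CPM. Cxcl12, Pdgfrb and Prrx1 were each highest in libraries 6, 3 and 5, but Pdgfra, Lepr, Thy1, Twist1 and Kitl did not have that order. Pdgfra was at 15.6, 33.2 and 14.2 CPM (wild type) and 27.4, 23.5 and 25.8 CPM (mutant), highest in library 4 and lowest in library 6. Thy1 was highest in library 2. Twist1 was at 1.17, 3.33 and 2.24 CPM (wild type) and 3.51, 4.08 and 3.87 CPM (mutant). Its genotypes did not overlap, as for 10.1% of all genes with the mutant higher, and those of the other tested stroma markers did. The 6 osteoblast markers found in the table, 4 of them tested, summed to 19.2, 17.7 and 50.2 CPM and to 16.3, 25.5 and 59.0 CPM, with Bglap, osteocalcin, at 0 counts in 4 libraries. Alpl was the largest part of this sum in libraries 6 and 5, at 29.6 and 30.0 CPM. Ibsp did not have that order, at 2.10, 1.70 and 2.16 CPM (wild type) and 0.913, 1.32 and 4.09 CPM (mutant). Markers of blood cells also differed between libraries. The 7 neutrophil markers summed to 281, 247 and 883 CPM in wild type and 435, 530.4 and 1343 CPM in mutant libraries. For the naming split, 5 of the 7 were called higher in libraries 5 and 6, against 0.513% of all genes. The 5 megakaryocyte and platelet markers summed to 36.97, 19.3 and 56.3 CPM in wild type and 73.7, 89.2 and 253 CPM in mutant libraries. Of them, Pf4 did not overlap between genotypes, at 9.10, 5.73 and 19.3 CPM (wild type) and 49.2, 63.7 and 183 CPM (mutant). Over all genes, 10.1% did not overlap with the mutant higher. Itga2b, Gp9, Ppbp and Gp1bb each overlapped between genotypes. The 9 macrophage markers summed to 5357 to 6723 CPM in wild type and 7861 to 8636 CPM in mutant libraries, which did not overlap. Taken singly, Csf1r, Cd68, Fcgr1 and Cd14 did overlap, and Cd68 had a log2 fold change of -0.15. Adgre1, Mrc1, C1qa, C1qb and Mertk did not, as for 10.1% of all genes with the mutant higher. Adipocyte markers were near absent, Adipoq having at most 3 counts. None of the fibroblast, osteoblast, smooth muscle or endothelial markers passed the genotype test with or without the naming split as a term. With the term, edgeR called 7 of 10 osteoclast markers lower in the mutant, against 6.15% of all genes. It called higher 5 of 9 macrophage, 4 of 7 neutrophil and 1 of 4 tested megakaryocyte and platelet markers, against 3.39% of all genes. Without the term, 0 markers of these lists were called. The part of stromal or other cell content in the levels of the matrix genes was not tested.

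Enzymes and partners of collagen were read from 5 lists chosen by function, and no gene of any list passed the genotype test (edgeR adjusted p under 0.05). Collagen modification and folding held 17 tested genes, 5 below 0, with a median log2 fold change of 0.12. Its most abundant members, P4hb (protein disulphide isomerase, a subunit of prolyl 4-hydroxylase) and Colgalt1, which glycosylates collagen, were even across libraries at 615 to 830.0 and 183 to 281 CPM. P3h3, a prolyl 3-hydroxylase family gene, was at 10.5, 14.1 and 15.1 CPM in wild type and 21.7, 25.8 and 25.8 CPM in mutant libraries. Its genotypes did not overlap, and neither did those of P4ha1, with the mutant higher, or P3h2, with the mutant lower. Over all genes, 10.1% did not overlap with the mutant higher and 17.1% with the mutant lower. P3h3 rose with the naming split as a term, as 1 of the 17, where 3.39% of all genes rose (log2 fold change 0.88 ± 0.17, SE, adjusted p = 0.0317 by edgeR). The fit without the term gave an edgeR adjusted p of 0.0880. Among 10 tested genes of procollagen processing and crosslinking, 1 was below 0, the median was 0.71 and 0 were called in either fit. Of its most abundant genes, Tgm2, a transglutaminase, was at 104, 98.6 and 132 CPM (wild type) and 107, 88.7 and 87.3 CPM (mutant), and Loxl3, a lysyl oxidase relative, at 43.7, 37.1 and 117 CPM (wild type) and 47.3, 95.6 and 183 CPM (mutant) in the library order of type I collagen.

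Of 9 collagen receptors and uptake genes, 3 were below 0 and the median was 0.33. Itga2, the collagen-binding integrin subunit alpha 2, was at 82.5, 60.99 and 131 CPM in wild type and 8.92, 17.6 and 29.5 CPM in mutant libraries. Its genotypes did not overlap, as for 17.1% of all genes with the mutant lower. It fell with the naming split as a term, as 1 of the 9, where 6.15% of all genes fell (log2 fold change -2.34 ± 0.26, SE, adjusted p = 0.0133 by edgeR), and the fit without it gave -2.29 with an adjusted p of 0.0897. Itga2 was thus lower in the mutant, as Col27a1 was, while 6 of the 9 genes of its list were above 0. A link between Itga2 and Col27a1 was not tested. Other basement membrane genes, laminins and their partners, were 7 below 0 and 7 above of 14 tested, with a median of 0.096 and 0 called in either fit, and Lamc1, a laminin chain, was at 85.8, 123 and 85.2 CPM (wild type) and 89.7, 83.2 and 87.98 CPM (mutant). Hspg2, perlecan, was at 36.9, 55.95 and 102 CPM (wild type) and 34.98, 89.1 and 140.0 CPM (mutant), high in the same libraries as type I collagen. Other stromal matrix genes had 2 of 22 below 0 and a median of 0.38. With the naming split as a term, 2 of the 22 rose, where 3.39% of all genes did. Thbs1, thrombospondin 1, was at 466, 344 and 988 CPM (wild type) and 849, 1655 and 2116 CPM (mutant) (log2 fold change 1.45, edgeR adjusted p = 0.0312, and 0.195 without the term). Emilin1, an elastic fibre glycoprotein, was at 56.1, 55.9 and 43.1 CPM (wild type) and 79.6, 87.6 and 87.01 CPM (mutant) (log2 fold change 0.72, edgeR adjusted p = 0.0226, and 0.0752 without the term). Its genotypes did not overlap, as for 10.1% of all genes with the mutant higher.

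The 12 matrix genes below the limit of 1 CPM in 3 libraries had 0 to 76 counts in any library. Just inside the limit, with 3 libraries at 1 CPM or more, were Col9a3, Col26a1, Col4a6, Col22a1 and Col23a1. Just outside it, with 2, were Col28a1 with 1 to 17 counts, Col8a2 with 0 to 76, Col19a1 with 4 to 25 and Col9a1 with 0 to 21. Col8a2, the partner of Col8a1, had its counts in libraries 4 and 2, with 68 and 76. The other 8 were the type IV genes Col4a3 with 0 to 3 counts and Col4a4 with 0 to 2, the type VI genes Col6a4 with 0 to 16, Col6a5 with 0 to 4 and Col6a6 with 0 to 8, and Col24a1 with 0 to 14, Col10a1 with 1 to 6 and Col17a1 with 0 to 17. Col10a1, the marker of hypertrophic cartilage, and the kidney and ear basement membrane pair Col4a3 and Col4a4 were thus close to 0 in these cultures.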

How the data were processed

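Whole-gene RNA-seq was analysed in 6 libraries, 3 per genotype. Per the labels' protocols, RNA was column-purified, and single 75-base reads were taken of stranded mRNA libraries. The submitters' processing notes list the build mm10 with SAMtools 0.1.19, Bowtie2 2.2.3 and TopHat2 2.0.13. How reads were counted, with which strand setting and annotation, is not given in the sources used here. The authors deposited raw whole-number counts per Ensembl gene in 1 table of 23264 rows, of which 60 repeats were dropped.

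Columns were assigned to genotypes by their names, which match no replicate or sex of the labels. No pair of libraries of 1 genotype agreed within counting noise (lowest chi-square 27.7 times its degrees of freedom), so none was treated as a repeat deposit of another. This does not show that they are separate animals. Genes with at least 1 CPM in at least 3 libraries (13646) were tested with edgeR 4.0.16 in R 4.3.3 (TMM scaling, quasi-likelihood test, Benjamini-Hochberg adjustment over all of them, threshold 0.05, SE computed as the log2 fold change over the root of F). Including the naming split as a term took the biological coefficient of variation from 40.1% to 23.2%. Tools and settings tried beside it were DESeq2 1.42.0, RLE and upper-quartile scaling, the filterByExpr filter of edgeR and no filter. Also tried were the naming split as a term and each library left out. Without TMM scaling, the ranks of the tested matrix genes by mean CPM did not change. The fits on libraries 1 to 4 alone, and on the term with a library left out, were chosen after seeing the data. Scripts were tested on simulated data. Exon lengths, strand overlaps and distances between genes came from GENCODE M21 (GRCm38), in which all 53 genes had the start and end of the deposited table. Full statistics are given for genes that passed either genotype fit or did not overlap between genotypes, the 8 with the highest mean CPM, Col1a1 and Postn, and values by library for every tested matrix gene. From the function lists, genes past either fit are named, otherwise the 2 with the highest mean. The matrix genes and all lists were chosen with earlier results of these data known.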

Additional observations from a re-analysis of the deposited data

How the results depend on the processing

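No paired analysis was possible because the library columns carry no replicate number. Over the whole table, 7 genes were called higher and 3 lower by genotype. These counts were 462 and 839 with the naming split as a term, 47 and 34 with upper-quartile scaling, 46 and 35 without the filter, 658 and 748 with DESeq2, and 1 and 0 in libraries 1 to 4. With 1 library left out they ran from 0 to 760 higher and 0 to 1196 lower, the high ends being those with the term and without library 3. Without library 5 or 6, the term leaves genotype to be read from libraries 1 to 4, by its construction. Matrix genes called were 0 higher and 0 lower, 1 and 1 with the term, and 0 and 1 with DESeq2. They ran from 0 to 2 in each direction with 1 library left out, where Col8a1 joined Postn without library 2 and Col5a3 joined Col27a1 without library 3, both with the term. Matrix genes below 0 numbered 13, and 4 to 19 with 1 library left out, without library 4 being lowest (7, or 4 with the term). Tet2 had a log2 fold change of -0.57 (edgeR adjusted p = 0.0399) with the term, -0.54 by DESeq2 (adjusted p = 0.00702), and -0.66 to -0.48 with 1 library left out. The median spread of the matrix genes was 0.401 to 1.08 in wild type and 0.452 to 1.32 in mutant libraries with 1 left out. Of the 41 matrix genes, 22 changed sign in at least 1 fit without a library and without the term. Among the 10 genes given full statistics, Col3a1 did so, and Col1a1 did so with the term. The log2 fold change of Col1a1 was -0.12 to 1.37 with 1 library left out, below 0 without library 3 with the term. That of Col3a1 was -0.21 to 0.50, below 0 at -0.15 without library 1, -0.21 without library 5, and -0.060 and -0.018 with the term without libraries 1 and 3. The cause was not tested. Of 434 values under alternatives, 374 kept direction and side of the threshold or moved less than the spread, 33 newly passed or gave higher counts, 20 gave lower counts, 5 turned sign and 2 moved. Depth limits genes at 0 counts to 0.223 CPM in library 5 and 0.240 CPM in library 6.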
